A study of Homo sapiens with 60 samples.

Results

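The MYC, MAX and MXD network was taken as 10 genes named by symbol: MYC, MYCN, MYCL, MAX, MLX, MXI1, MXD1, MXD3, MXD4 and MNT. All probe sets that the array's annotation gives to these genes alone were used, and the brightest over all arrays stood for its gene. They were 31 of 41091 probe sets, and they gave a value to 9 of the 10 genes, of 19775 genes in all. MXD4 was covered by 3 probe sets that also name other genes, so it has no value here.

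MYC, MYCN and MYCL are basic helix-loop-helix leucine zipper factors that bind the E-box as a dimer with MAX and raise the transcription of genes for ribosome production, metabolism and division. MXI1, MXD1, MXD3, MXD4 and MNT bind MAX in place of MYC and recruit the SIN3 corepressor to the same sites, while MLX resembles MAX and pairs with some MXD proteins, with MNT and with the glucose-sensing factors MLXIP and MLXIPL. In mammary epithelium MYC drives growth and lies downstream of growth factor receptors such as HER-2, the product of ERBB2.

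RNA was measured on 60 Affymetrix arrays from 3 human breast lines under 4 conditions. HB4a is a normal breast epithelial line, C5.2 (also labelled C5.2a) was made from HB4a by transfection of a HER-2 cDNA, and SKBR3 comes from a mammary adenocarcinoma with high HER-2. C5.2 is thus 1 derived line, so the cDNA cannot be told apart from other differences between it and HB4a. Each line received DMSO vehicle, 30 nM doxorubicin (an anthracycline that poisons topoisomerase II), 20 nM rapamycin (an inhibitor of the kinase complex mTORC1) or both drugs at those doses, with 5 arrays for each of the 12 groups, 1 per independent experiment (numbered 1, 2, 3, 4 and 6). The labels give no time of treatment. Levels below are log2 values as deposited, listed in the order of the experiment numbers. Differences are log2 contrasts fitted by limma, ± their standard error. Rose and fell are used for an adjusted p under 0.05 across the genes tested.

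The lines carried the markers of their labels in part. The vehicle means of ERBB2 were 6.67, 12.06 and 11.48 for HB4a, C5.2 and SKBR3 (SD 0.23, 0.25 and 0.35). The log2 of the summed linear values of 8 luminal markers lay on vehicle arrays at 12.57 to 12.83 in HB4a, 11.07 to 11.56 in C5.2 and 13.16 to 13.31 in SKBR3. The 4 basal markers with a value summed to 10.32 to 10.68, 7.01 to 8.17 and 3.86 to 4.79, and the 7 mesenchymal markers to 11.58 to 11.81, 12.31 to 12.83 and 5.53 to 8.97. Such sums follow their brightest members. CDH1, GATA3 and MUC1 averaged 9.27, 6.97 and 7.59 in HB4a but 1.37, 4.56 and 6.28 in SKBR3, while the other luminal markers were higher in SKBR3. From HB4a to C5.2 FN1 went from 11.04 to 10.19, while VIM went from 8.55 to 11.04 and COL3A1 from 2.74 to 10.9. On vehicle arrays sums for the leukocyte markers stayed at or under 5.09 and those for the endothelial markers at or under 5.46. Over all arrays they reached 5.39 (C5.2 under doxorubicin) and 5.64 (C5.2 under rapamycin). SKBR3 vehicle array 3 carried FN1 at 8.83 against 3.91 to 4.62 on the other SKBR3 vehicle arrays, SPARC at 3.46 against 0.15 to 0.54, and VIM at 3.95 against 2.04 to 2.36. Over all genes past the filter that array lay at 1.22 times the usual distance from its group. Another 9 arrays lay more than 1.5 times that distance from their group. They were HB4a doxorubicin 1, rapamycin 1 and both drugs 1, and C5.2 doxorubicin 2, rapamycin 2 and both drugs 2. SKBR3 vehicle 1, doxorubicin 1 and both drugs 4 were the rest. Results whose call changed without these 9 arrays are given both ways, and why the arrays stood apart was not tested.

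Rapamycin raised MYC RNA in all 3 lines, and doxorubicin lowered it in HB4a. The MYC rise in SKBR3 lost its call when any of 4 arrays was left out. With both drugs MYC lay between its levels under the separate drugs in HB4a and C5.2. The antagonist MXI1 rose with rapamycin in C5.2 and SKBR3, alongside MYC. MAX rose in SKBR3 on its brightest probe set, but not on the second one past the filter. MXD3 rose with the drug pair in HB4a and C5.2, calls lost when any of 6 and any of 3 arrays was left out. SKBR3 carried less MAX and MLX than either of the other lines. Of all genes 77.3% differed in either direction between SKBR3 and HB4a, and 78.8% between SKBR3 and C5.2. MXI1 and MNT were lower in SKBR3 too, but MXI1 against HB4a and MNT against C5.2 lost their call without 1 SKBR3 array.

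Promoter sequence is shown for the 3 genes, MYC aside, whose windows hold an E-box or a FOXO motif and whose values are described below. RefSeq windows of 250 bases before to 50 bases after a start, on build GRCh38.p14, were used for 9 of the 10 genes, as 12 windows. Windows on the chromosome of MYC were left out of the network counts but kept in the share over all windows. The network counts thus do not cover MYC. The E-box CACGTG, which reads the same on both strands, occurred in 3 of these 12 windows, those of MLX, MNT and MXD4, and in 7.26% of all 35116 windows. The FOXO motif GTAAACA, searched on both strands (as GTAAACA or TGTTTAC), was included because MXI1 is a reported FOXO target. It occurred in 2 of the 12, both at MXI1, and in 3.42% of all windows. Neither motif overlaps the other, and a match is a description of letters only. The stretches below run 5′ to 3′ on the gene's strand from 250 bases before to 20 bases after the start, with the motif in capitals.

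The E-box of MLX begins 50 bases before the start (chr17:42566850-42567119, plus strand) and that of MNT 193 bases before it (chr17:2401041-2401310, minus strand). MLX is the MAX-like partner, and MNT is the antagonist that most cell types carry.
MLX: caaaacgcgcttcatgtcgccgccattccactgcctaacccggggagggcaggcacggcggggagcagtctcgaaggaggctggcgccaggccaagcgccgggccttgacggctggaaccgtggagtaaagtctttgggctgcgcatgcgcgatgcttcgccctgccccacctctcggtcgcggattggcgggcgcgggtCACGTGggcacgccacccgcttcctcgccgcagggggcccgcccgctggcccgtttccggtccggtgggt
MNT: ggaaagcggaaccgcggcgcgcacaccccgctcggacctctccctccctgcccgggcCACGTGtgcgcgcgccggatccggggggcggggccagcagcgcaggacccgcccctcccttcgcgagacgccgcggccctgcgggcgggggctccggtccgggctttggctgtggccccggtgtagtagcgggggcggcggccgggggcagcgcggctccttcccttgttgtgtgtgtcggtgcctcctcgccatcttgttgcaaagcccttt

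The MXI1 gene has 3 windows, 1 for each start. The FOXO motif begins 151 bases before the middle start (chr10:110209981-110210250, plus strand) and 2 bases before the last (chr10:110225746-110226015, plus strand).
MXI1 middle start: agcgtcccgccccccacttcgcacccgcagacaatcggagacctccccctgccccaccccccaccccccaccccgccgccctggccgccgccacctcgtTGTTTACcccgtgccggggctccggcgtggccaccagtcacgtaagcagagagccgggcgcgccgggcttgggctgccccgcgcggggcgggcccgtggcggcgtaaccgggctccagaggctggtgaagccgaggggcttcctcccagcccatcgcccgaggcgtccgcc
MXI1 last start: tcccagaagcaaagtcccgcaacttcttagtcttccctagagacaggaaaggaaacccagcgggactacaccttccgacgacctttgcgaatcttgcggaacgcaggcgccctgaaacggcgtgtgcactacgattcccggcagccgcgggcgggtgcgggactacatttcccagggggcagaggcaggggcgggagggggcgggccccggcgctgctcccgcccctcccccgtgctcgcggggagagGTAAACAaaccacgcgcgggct

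MYC, the founding member, had 1 probe set, which read 9.48, 9.55, 9.5, 9.40 and 9.16 in vehicle-treated HB4a. Doxorubicin arrays of HB4a read 8.31, 8.85, 8.44, 8.48 and 7.94. The highest of these lies below the lowest vehicle array. MYC thus fell in HB4a by 1.01 ± 0.14, a 2.02-fold lower level (limma adjusted p = 7.39e-05), and stayed called whichever array was left out. These are RNA levels of whole cultures, where fewer cells with the transcript and less of it per cell cannot be told apart. Rapamycin moved MYC the other way, with 10.10, 10.14, 10.31, 9.59 and 10.12, all above the vehicle arrays. The rise was 0.64 ± 0.14, or 1.56-fold (adjusted p = 0.0136). With both drugs HB4a read 9.05, 9.41, 8.95, 8.94 and 8.99, of which array 2 reached into the vehicle range. That mean was -0.35 ± 0.14 from vehicle and did not pass (adjusted p = 0.102).

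In C5.2 MYC started lower and followed the same order of groups. Vehicle arrays read 8.38, 8.43, 8.17, 8.80 and 8.49, and doxorubicin arrays 8.29, 8.44, 7.41, 7.87 and 7.87. Arrays 1 and 2 under doxorubicin lay inside the vehicle range and the other 3 below it. The difference of -0.48 ± 0.17 did not pass without the pairing of experiments (adjusted p = 0.168). It passed with the experiment number as a block (adjusted p = 0.00617, where 17.4% of all genes were called) and without the arrays that stood apart (-0.59, adjusted p = 0.0371), and its adjusted p ranged from 0.00617 to 0.396 over all alternatives. Under rapamycin C5.2 read 9.38, 9.19, 8.82, 9.26 and 9.46, each above every vehicle array. MYC rose by 0.77 ± 0.17, or 1.70-fold (adjusted p = 0.00488). Both drugs gave 8.64, 8.44, 8.0, 8.35 and 8.61, where array 3 lay below the vehicle range and the others inside it. The difference was -0.05 ± 0.17 (95% interval -0.40 to 0.31, adjusted p = 0.894).

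In SKBR3 doxorubicin gave MYC no called change without pairing. Its vehicle arrays read 8.46, 9.03, 8.86, 8.83 and 8.57 for MYC and its doxorubicin arrays 8.66, 9.27, 9.07, 9.08 and 8.94. The groups overlap, and the difference was 0.25 ± 0.14 (adjusted p = 0.859; 0.00261 in a blocked fit of only these arrays, where 15% of all genes were called; range over alternatives 0.00261 to 1). Rapamycin arrays read 8.97, 9.13, 9.47, 9.34 and 9.04, and both drugs 8.99, 9.43, 9.11, 9.43 and 8.84. Each of these 2 groups overlaps vehicle at its lower end. MYC rose by 0.44 ± 0.14 with rapamycin (1.35-fold, adjusted p = 0.0323) and by 0.41 ± 0.14 with both (1.33-fold, adjusted p = 0.0397). The first call was lost when vehicle array 1 or 6 or rapamycin array 3 or 4 was left out, with values from 0.37 to 0.51, and with no filter or all arrays in 1 fit (adjusted p = 0.0608 and 0.0521). The second was lost without vehicle 1, 3, 4 or 6 or both-drug array 2, 3 or 4 (0.34 to 0.49; 0.44 and adjusted p = 0.0524 without vehicle 3), and was 0.27 with adjusted p = 0.134 without the arrays that stood apart. It was lost too with no filter, array centring, only the arrays compared, or all arrays in 1 fit (adjusted p from 0.0639 to 0.0682).

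**Figure D1:**
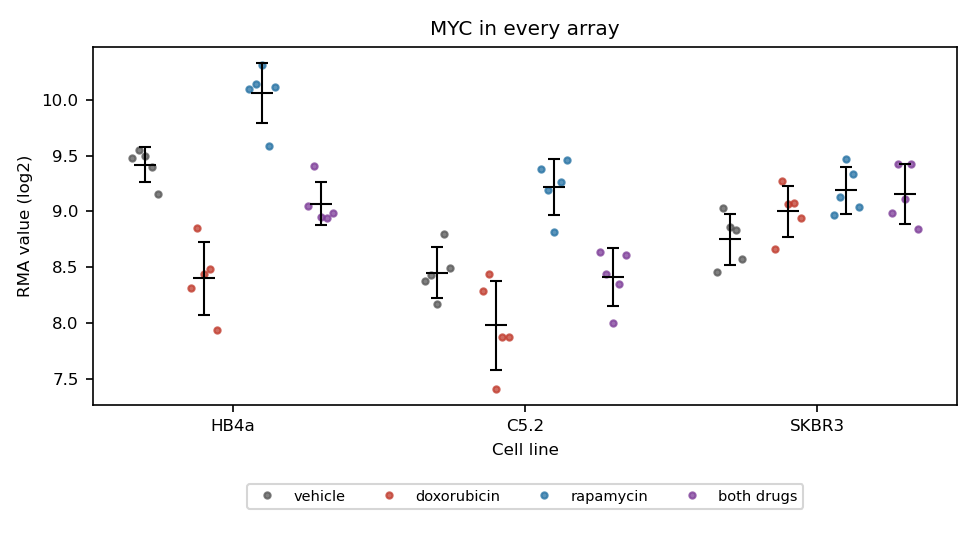
MYC RNA (RMA value, log2) on each of the 60 arrays by cell line, with points coloured by treatment and a black mark for the mean ± SD of each group of 5 arrays. In HB4a the 5 doxorubicin arrays lie between 7.94 and 8.85, below all vehicle arrays, and the 5 rapamycin arrays between 9.59 and 10.31, above them.

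Setting the drug pair against each drug asked what the second drug added, and these comparisons share arrays with those above. Rapamycin added to doxorubicin raised MYC in HB4a by 0.66 ± 0.14 (adjusted p = 0.0127), with no overlap of the groups. In C5.2 the value was 0.43 ± 0.17 (adjusted p = 0.0997, or 0.00513 in the blocked fit, where 38% of all genes were called; range over alternatives 0.00494 to 0.251; called also without C5.2 doxorubicin 2), and in SKBR3 it was 0.16 (adjusted p = 0.426). When doxorubicin was added to rapamycin, MYC fell by 0.99 ± 0.14 in HB4a (adjusted p = 0.000121) and fell by 0.81 ± 0.17 in C5.2 (adjusted p = 0.00477), again without overlap. SKBR3 gave -0.03 (adjusted p = 0.968). The departure of the pair from the sum of the separate effects was 0.03 ± 0.20 in HB4a, -0.34 ± 0.24 in C5.2 and -0.28 ± 0.20 in SKBR3, none of which passed (adjusted p = 1 for each).

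Among the lines in vehicle MYC was highest in HB4a. C5.2 carried 1.95-fold less (-0.96 ± 0.16, adjusted p = 5.41e-06) and SKBR3 1.59-fold less (-0.67 ± 0.15, adjusted p = 9.78e-05), each without overlap. C5.2 and SKBR3 are neighbours in that order whose arrays overlap (SKBR3 minus C5.2 0.30 ± 0.16, adjusted p = 0.086). That difference passed when C5.2 vehicle 4 or SKBR3 vehicle 1 was left out and without the arrays that stood apart (0.37, adjusted p = 0.0296, range over alternatives 0.016 to 0.216).

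The doxorubicin response of MYC differed between lines by the test of the difference itself. It was 1.26 ± 0.21 higher in SKBR3 than in HB4a (adjusted p = 0.000162). Against C5.2 the gap was 0.73 ± 0.23 (adjusted p = 0.116; 0.00074 with the block, where 8.23% of all genes were called; range over alternatives 0.00074 to 0.293; called also without C5.2 doxorubicin 2 or, at 0.86, without the arrays that stood apart). The response to both drugs was 0.76 ± 0.21 higher in SKBR3 than in HB4a (adjusted p = 0.013; 0.61 with adjusted p = 0.0558 without the arrays that stood apart). Rapamycin responses of MYC gave -0.20 for SKBR3 minus HB4a and -0.33 for SKBR3 minus C5.2 (adjusted p = 0.666 and 0.39; the latter 0.0416 in a blocked fit of only these arrays, where 28.7% of all genes were called, range over alternatives 0.0416 to 0.568), and no difference in MYC response between C5.2 and HB4a passed.

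The paralogs MYCN and MYCL lay under the filter of log2 5 on all arrays. MYCN, best known from neuroblastoma, had 10 probe sets, and its brightest read between 2.02 and 2.98 over the 60 arrays with group means from 2.28 to 2.79. MYCL, best known from lung cancer, read between 1.97 and 3.89 on the brighter of its 2 probe sets. In a fit without a filter MYCL was lower in vehicle-treated SKBR3 than in HB4a (-0.98 ± 0.16, adjusted p = 8.12e-07) and than in C5.2 (-0.95 ± 0.16, adjusted p = 1.4e-06). No treatment comparison called either gene in that fit. The largest MYCL value was 0.47 ± 0.15 for both drugs in SKBR3 (adjusted p = 0.0582).

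MAX is the obligate partner of MYC and of its antagonists. It had 5 probe sets, of which 2 passed the filter. The one standing for the gene read 7.75, 7.83, 7.49, 7.90 and 7.80 in vehicle-treated HB4a and 7.77, 7.87, 7.90, 7.89 and 7.90 in C5.2, where group means under the drugs stayed at 7.70 to 7.78 and 7.80 to 7.90. Vehicle-treated SKBR3 read 6.68, 6.99, 6.88, 6.77 and 6.66. No SKBR3 array reached the lowest vehicle array of the other lines. MAX was lower in SKBR3 by -0.96 ± 0.10 than in HB4a (adjusted p = 1.68e-11) and by -1.07 ± 0.07 than in C5.2 (adjusted p = 4.41e-16), while C5.2 minus HB4a was 0.11 (adjusted p = 0.262).

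Rapamycin raised MAX in SKBR3. Rapamycin arrays read 7.18, 7.21, 7.30, 7.01 and 7.04 and both-drug arrays 7.24, 7.20, 7.12, 7.22 and 7.04, all above the vehicle arrays. The rises were 0.35 ± 0.09 (1.28-fold, adjusted p = 0.00958) and 0.37 ± 0.09 (1.29-fold, adjusted p = 0.00754). Doxorubicin alone gave 6.78, 7.10, 6.93, 6.94 and 6.69, which overlap vehicle. Both drugs against doxorubicin gave 0.28 ± 0.09 (adjusted p = 0.0369), a call lost without any of doxorubicin arrays 1, 3, 4 and 6 or both-drug arrays 1, 2, 3 and 4 (0.23 to 0.33) without the arrays that stood apart (0.23, adjusted p = 0.102), and with no filter, array centring or only the arrays compared.

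The MAX response to rapamycin was 0.42 ± 0.10 higher in SKBR3 than in C5.2 (adjusted p = 0.01) and the response to both drugs 0.40 ± 0.10 higher (adjusted p = 0.00796). Against HB4a the both-drug response was 0.43 ± 0.13 higher (adjusted p = 0.0354), a call lost with any of 9 arrays left out (HB4a vehicle 2, 4 and 6, HB4a both drugs 2, SKBR3 vehicle 1, 4 and 6, SKBR3 both drugs 1 and 2; 0.35 to 0.49) without the arrays that stood apart (0.40, adjusted p = 0.066), and with no filter, array centring or only the arrays compared. The rapamycin response against HB4a was 0.41 ± 0.13 (adjusted p = 0.0775; 0.0113 with the block, where 22.5% of all genes were called; range over alternatives 0.0078 to 0.198; called also without HB4a vehicle 3 or SKBR3 vehicle 2). This block also drew on the HB4a both-drug arrays, whose pairing did not hold. The second MAX probe set did not follow in SKBR3 to the same degree, with 0.27 for rapamycin (adjusted p = 0.0624) and 0.13 for both drugs (adjusted p = 0.355) over all probe sets tested. It was lower in SKBR3 than in HB4a too (-0.59, adjusted p = 1.65e-05).

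MLX, the MAX-like partner of some MXD proteins, fell in C5.2. The probe set standing for MLX read 6.89, 7.26, 7.0, 6.97 and 7.12 in C5.2 under vehicle, 6.75, 6.86, 6.65, 6.57 and 6.83 under rapamycin and 6.96, 6.87, 6.59, 6.54 and 6.75 under both drugs. Rapamycin arrays lay below all vehicle arrays, and both-drug array 1 lay inside the vehicle range. MLX fell by 0.31 ± 0.10 with rapamycin (1.24-fold, adjusted p = 0.0367) and by 0.30 ± 0.10 with both (1.23-fold, adjusted p = 0.0381). Each call was lost when any of 6 arrays was left out: vehicle 2, 4 or 6 or rapamycin 1, 3 or 4 for the first (-0.35 to -0.26), and vehicle 2, 3 or 6 or both-drug 3, 4 or 6 for the second (-0.36 to -0.25). Neither call held with no filter, quantile normalization or all arrays in 1 fit. Of the other 2 MLX probe sets past the filter, 1 fell with rapamycin (-0.37 ± 0.12, adjusted p = 0.0363) and 1 gave -0.15 (adjusted p = 0.317).

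SKBR3 held less MLX, with vehicle arrays of 6.27, 6.55, 6.42, 6.18 and 6.16, all below those of the other lines. The difference was -0.57 ± 0.13 from HB4a (adjusted p = 0.000106) and -0.73 ± 0.11 from C5.2 (adjusted p = 1.39e-07). MLX in SKBR3 gave 0.19 for rapamycin and 0.21 for both drugs (adjusted p = 0.286 and 0.188; the latter 0.041 with the block, where 50.5% of all genes were called, range over alternatives 0.0151 to 0.363, called also without both-drug 4 and, at 0.30 with 0.048, without the arrays that stood apart), so that the responses of SKBR3 and C5.2 differed by 0.50 ± 0.15 with rapamycin (adjusted p = 0.0409) and 0.51 ± 0.15 with both (adjusted p = 0.0211). The first was lost with any of 11 arrays left out (C5.2 vehicle 2 and 6, C5.2 rapamycin 1, 3 and 4, SKBR3 vehicle 1, 4 and 6, SKBR3 rapamycin 1, 2 and 3; 0.45 to 0.56) and the second without C5.2 vehicle 2 or C5.2 both drugs 4 (0.46 to 0.62), and neither held with quantile normalization (adjusted p = 0.122 and 0.0585). Group means of MLX in HB4a, 6.89 under vehicle and 7.06, 6.89 and 7.01 under doxorubicin, rapamycin and both, did not differ beyond their spread. Both drugs against doxorubicin gave -0.27 in C5.2 (adjusted p = 0.0854, 0.0053 with the block, range over alternatives 0.00384 to 0.358, called also without doxorubicin 4 or both-drug 1) and 0.30 in SKBR3 (adjusted p = 0.0684, 0.00585 with the block, where 49.6% of all genes were called, range over alternatives 0.00292 to 0.167, called also without both-drug 4 and, at 0.40 with 0.0129, without the arrays that stood apart). The MLX response to both drugs, C5.2 minus HB4a, was -0.42 (adjusted p = 0.403) and was called without the arrays that stood apart (-0.54, adjusted p = 0.0225, range over alternatives 0.00267 to 0.876).

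MXI1, an antagonist that competes with MYC for MAX, rose with rapamycin. In C5.2 its probe set read 6.77, 6.29, 6.70, 6.56 and 6.66 under vehicle and 7.61, 7.12, 7.38, 7.68 and 7.48 under rapamycin. Both drugs gave 7.57, 6.83, 7.52, 7.61 and 7.44. All arrays with rapamycin in the medium lay above all vehicle arrays. The rises were 0.86 ± 0.15 (1.81-fold, adjusted p = 0.000908) and 0.80 ± 0.15 (1.74-fold, adjusted p = 0.000992). Doxorubicin alone gave 6.96, 6.33, 6.71, 6.90 and 6.67, close to vehicle (0.12 ± 0.15, adjusted p = 0.814), and rapamycin on top of doxorubicin raised MXI1 by 0.68 ± 0.15 (adjusted p = 0.00614).

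In SKBR3 MXI1 read 6.02, 5.67, 5.97, 5.78 and 5.35 under vehicle, 6.38, 6.48, 6.38, 6.36 and 5.90 under rapamycin and 6.28, 6.29, 6.0, 6.45 and 5.86 under both. The experiment 6 arrays were the lowest in each of these groups, and the groups overlap. MXI1 rose by 0.54 ± 0.15 with rapamycin (1.45-fold, adjusted p = 0.0131) and by 0.42 ± 0.15 with both (1.33-fold, adjusted p = 0.0469). The second call was lost with any of 15 of the 20 arrays left out (0.31 to 0.49), the exceptions being vehicle 1 and 3, doxorubicin 1, rapamycin 6 and both drugs 6. Its adjusted p ranged from 0.00133 to 0.119 over the alternatives. Both drugs against doxorubicin gave 0.31 (adjusted p = 0.136, 0.0119 with the block; range over alternatives 0.0106 to 0.248).

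HB4a gave 6.44, 5.52, 6.63, 6.48 and 6.26 for MXI1 under vehicle and 7.06, 6.42, 7.29, 6.89 and 6.68 under rapamycin. Array 2 was the lowest of both groups, and the ranges overlap. The difference of 0.60 ± 0.20 did not pass without pairing (adjusted p = 0.12) and passed when experiments were blocked (adjusted p = 0.0333, where 16.3% of all genes were called; range over alternatives 0.000128 to 0.347). That block also drew on the both-drug arrays, whose pairing did not hold. Both drugs gave 0.35 ± 0.20 (adjusted p = 0.252). In vehicle MXI1 was lower in SKBR3 than in C5.2 (-0.84 ± 0.15, adjusted p = 5.79e-06) and than in HB4a (-0.51 ± 0.18, adjusted p = 0.0118, lost without SKBR3 vehicle 6, range -0.69 to -0.40, and with array centring, adjusted p = 0.0828). C5.2 minus HB4a was 0.33 (adjusted p = 0.134; 0.022 in a blocked fit of only these arrays, where 61.7% of all genes were called; range over alternatives 0.022 to 0.528). The rapamycin response of SKBR3 minus that of C5.2 was -0.32 (adjusted p = 0.382, 0.0412 with the block, where 32.4% of all genes were called, range over alternatives 0.0412 to 0.59). For both drugs it was -0.38 (adjusted p = 0.25; -0.53 and 0.0224 without the arrays that stood apart; range over alternatives 0.0125 to 0.428).

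MXD1, the antagonist that rises when many cells stop dividing and differentiate, lay under the filter. Its brightest of 3 probe sets read 2.74, 2.91, 2.17, 2.59 and 2.16 in HB4a under vehicle, 3.25, 3.96, 2.99, 3.13 and 3.06 under doxorubicin and 3.65, 3.39, 4.01, 3.33 and 3.40 under both drugs. All arrays with doxorubicin lay above all vehicle arrays. Rapamycin alone gave 2.38, 3.53, 2.16, 2.93 and 2.34, of which 3.53 and 2.93 lay above the vehicle range. The other MXD1 probe sets read 1.57 to 3.76 and 0.28 to 1.93 over the 60 arrays and were not tested. The MXD1 differences below thus rest on 1 probe set with low values. In the fit without a filter, doxorubicin gave 0.76 ± 0.24 (adjusted p = 0.0702) and both drugs a rise of 1.04 ± 0.24, or 2.06-fold (adjusted p = 0.00731), where 7.34% of all genes were called. Both drugs against rapamycin gave 0.89 ± 0.24 (adjusted p = 0.0404), where 2.99% were called. MXD1 was lower in C5.2 than in HB4a under vehicle (-0.71 ± 0.22, adjusted p = 0.0104) and higher in SKBR3 than in HB4a (0.79 ± 0.22, adjusted p = 0.00173) and C5.2 (1.5 ± 0.19, adjusted p = 1.11e-08). Unfiltered, 40.3% of all genes differed between C5.2 and HB4a, 62.1% between SKBR3 and HB4a and 59.3% between SKBR3 and C5.2.

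MXD3, the antagonist tied to the S phase of proliferating precursors, rose with the drug pair. In C5.2 it read 5.73, 6.23, 6.15, 6.10 and 5.92 under vehicle, 5.74, 6.21, 6.25, 6.01 and 5.77 under doxorubicin and 6.48, 6.32, 6.69, 6.41 and 6.30 under both drugs. The both-drug arrays lay above all others of these groups. Rapamycin alone averaged 6.05 (SD 0.21), near the vehicle mean of 6.02. The rise with both was 0.41 ± 0.13 from vehicle (1.33-fold, adjusted p = 0.0251) and 0.44 ± 0.13 from doxorubicin (adjusted p = 0.0269), and against rapamycin it was 0.39 (adjusted p = 0.081; 0.00221 with the block, where 22.2% of all genes were called; range over alternatives 0.00153 to 0.206; called also without rapamycin 2 or, at 0.48, without the arrays that stood apart). The first call was lost without vehicle 1 or 6 or both-drug 3 (0.34 to 0.47), the second without doxorubicin 1 or 6 or both-drug 3 or 4 (0.38 to 0.51), and neither held with no filter (adjusted p = 0.0584 and 0.0676). The departure from the sum of the separate effects was 0.42 ± 0.18 (unadjusted p = 0.0319, adjusted p = 1).

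HB4a gave 4.81, 5.11, 5.23, 5.30 and 5.30 for MXD3 under vehicle and 5.15, 5.74, 5.68, 5.89 and 5.82 under both drugs. Only both-drug array 1 reached into the vehicle range. MXD3 rose by 0.51 ± 0.16 (1.42-fold, adjusted p = 0.0283), a call lost without vehicle 1 or 2 or both-drug 2, 3, 4 or 6 (0.42 to 0.63) and with quantile normalization (0.41, adjusted p = 0.0819). Against doxorubicin both drugs gave 0.44 and against rapamycin 0.39 in HB4a (adjusted p = 0.166 and 0.137, 0.035 and 0.0468 without the arrays that stood apart, ranges over alternatives 0.00201 to 0.348 and 0.00213 to 0.334; the second also called without both-drug 1). In SKBR3 both drugs gave -0.18 (adjusted p = 0.258). Under rapamycin alone MXD3 fell in SKBR3, with 5.25, 5.33, 5.19, 5.12 and 5.29 under vehicle and 5.08, 4.94, 4.91, 4.57 and 5.00 under rapamycin, without overlap. That fall of 0.34 ± 0.12 (1.26-fold, adjusted p = 0.0488) was lost with any of 17 of the 20 arrays left out (-0.38 to -0.26), all but rapamycin 1 and both drugs 2 and 4, and was -0.35 with adjusted p = 0.071 without vehicle 3 and -0.34 with adjusted p = 0.0586 without the arrays that stood apart (range over alternatives 0.00424 to 0.169).

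The MXD3 response to both drugs was lower in SKBR3 than in HB4a by -0.69 ± 0.19 and than in C5.2 by -0.60 ± 0.17 (adjusted p = 0.0157 for each), and these calls held with each array left out but not with quantile normalization (-0.52 and -0.58, adjusted p = 0.125 and 0.0667). The rapamycin responses gave -0.46 and -0.37 (adjusted p = 0.199 and 0.203, 0.00349 and 0.0176 with the block, ranges over alternatives 0.00349 to 0.416 and 0.0176 to 0.357; the first also called without the arrays that stood apart, -0.55 with 0.0404). The block for the first also drew on the HB4a both-drug arrays, whose pairing did not hold. In vehicle MXD3 was higher in C5.2 than in HB4a (0.87 ± 0.14, adjusted p = 3.03e-06) and than in SKBR3 (SKBR3 minus C5.2 -0.79 ± 0.12, adjusted p = 2.87e-07). SKBR3 and HB4a did not differ beyond their spread (0.09, adjusted p = 0.559).

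MNT, the antagonist thought to hold MYC sites in resting and cycling cells alike, was changed by no treatment without pairing. In HB4a it read 6.46, 6.34, 6.36, 6.67 and 6.76 under vehicle and 6.44, 6.89, 6.61, 7.29 and 7.06 under rapamycin (0.34 ± 0.16, adjusted p = 0.338, 0.0373 with the block, range over alternatives 0.0213 to 0.574). The block there also drew on the HB4a both-drug arrays, whose pairing did not hold. Doxorubicin gave -0.24 for MNT in HB4a (adjusted p = 0.386; 0.0345 in a blocked fit of only these arrays, where 40.2% of all genes were called; range over alternatives 0.0345 to 0.581). In SKBR3 it read 4.50, 5.84, 5.79, 5.74 and 5.96 under vehicle, 5.40, 6.18, 6.05, 6.19 and 6.28 under rapamycin and 5.38, 6.30, 6.49, 5.80 and 6.5 under both. Array 1 was the lowest in each of these SKBR3 groups. The differences were 0.45 ± 0.28 with rapamycin (adjusted p = 0.29) and 0.53 ± 0.28 with both drugs (adjusted p = 0.174), and they passed once the experiment number entered as a block (adjusted p = 0.00239, where 41.8% of all genes were called, and 0.000533; ranges over alternatives 0.00146 to 0.691 and 0.000533 to 0.483). Both drugs against doxorubicin gave 0.68 ± 0.28 in SKBR3 (adjusted p = 0.0887, 4.5e-05 with the block, range over alternatives 4.5e-05 to 0.245, called also without vehicle 1 or both-drug 1). Both drugs against rapamycin gave -0.49 ± 0.16 in HB4a (adjusted p = 0.0652, range over alternatives 0.00216 to 0.228), a difference called without the arrays that stood apart (-0.50, adjusted p = 0.0448) or without rapamycin 1, and -0.37 in C5.2 (adjusted p = 0.242, 0.0219 with the block, range over alternatives 0.00217 to 0.487).

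SKBR3 had the lowest MNT in vehicle, 1.93-fold below HB4a (-0.95 ± 0.24, adjusted p = 0.000522, no overlap) and 1.56-fold below C5.2 (-0.64 ± 0.24, adjusted p = 0.0144, overlapping). The second call was lost without SKBR3 vehicle 1, which reads 4.50 (-0.38; with each array left out the values ran from -0.79 to -0.38), without the arrays that stood apart (adjusted p = 0.0633) and with array centring (adjusted p = 0.0639). C5.2 minus HB4a was -0.31 ± 0.17 (adjusted p = 0.129; 0.0263 with the block, where 58.2% of all genes were called; range over alternatives 0.014 to 0.444). That block drew on all arrays of both lines, the HB4a both-drug arrays among them.

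**Figure D2:**
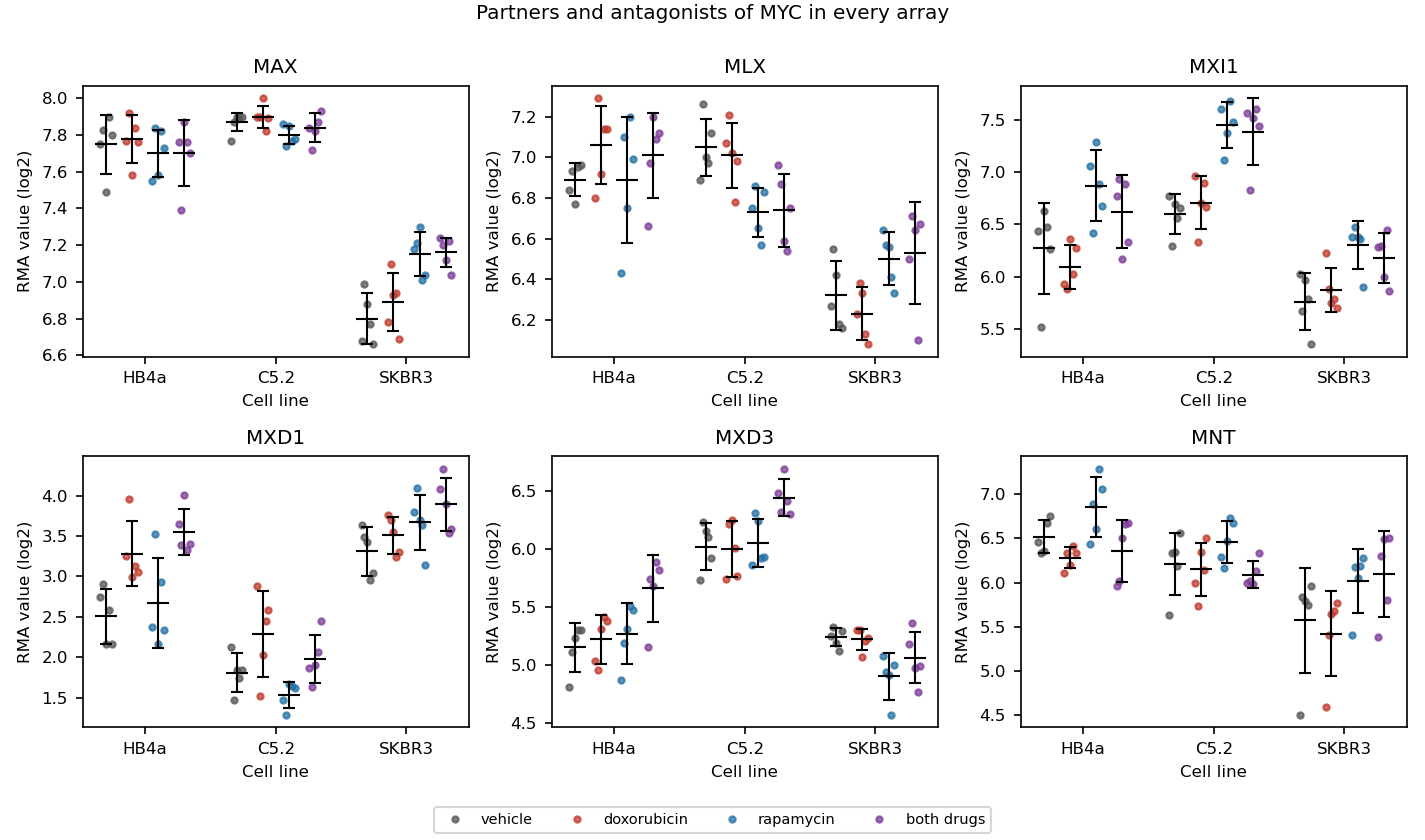
RNA of MAX, MLX, MXI1, MXD1, MXD3 and MNT (RMA value, log2; each panel has its own axis) on each of the 60 arrays by cell line, with points coloured by treatment and a black mark for the mean ± SD of 5 arrays. MXI1 in C5.2 lies at 7.12 to 7.68 under rapamycin against 6.29 to 6.77 under vehicle, and all MAX arrays of vehicle-treated SKBR3 lie at 6.66 to 6.99.

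Counts over the network are read against the share of all genes tested that passed the same test in either direction. Of the 9 genes with a value, 6 passed the filter in each line (MYC, MAX, MLX, MXI1, MXD3 and MNT), so the counts say nothing of MYCN, MYCL and MXD1. With doxorubicin 1 of the 6 fell in HB4a, MYC, against 11.4% of all genes called there. In C5.2 and SKBR3 limma called 0 of the 6, with 1 and 0 at an unadjusted p under 0.05, against 3.26% and 0.837% of all genes. With rapamycin 1 rose in HB4a (MYC, against 3.18%). In C5.2 2 rose and 1 fell (MYC and MXI1, and MLX, against 17.4%), and in SKBR3 3 rose and 1 fell (MYC, MAX and MXI1, and MXD3, against 18.3%). With both drugs 1 rose in HB4a (MXD3, against 17.4%), a share near that of all genes. In C5.2 2 rose and 1 fell (MXI1 and MXD3, and MLX, against 21%), and in SKBR3 3 rose (MYC, MAX and MXI1, against 22%). By direction, 2.08%, 2.83% and 7.48% of all genes rose with rapamycin in HB4a, C5.2 and SKBR3. With both drugs 10.9%, 6.42% and 8.35% rose. Falls were 2.77% with doxorubicin in HB4a, 14.6% and 10.8% with rapamycin in C5.2 and SKBR3, and 14.6% with both drugs in C5.2. The median difference of the 6 genes under both drugs was 0.39 in SKBR3, 0.03 in HB4a and -0.04 in C5.2, beside -0.06, 0.05 and -0.06 over all genes.

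**Figure D3:**
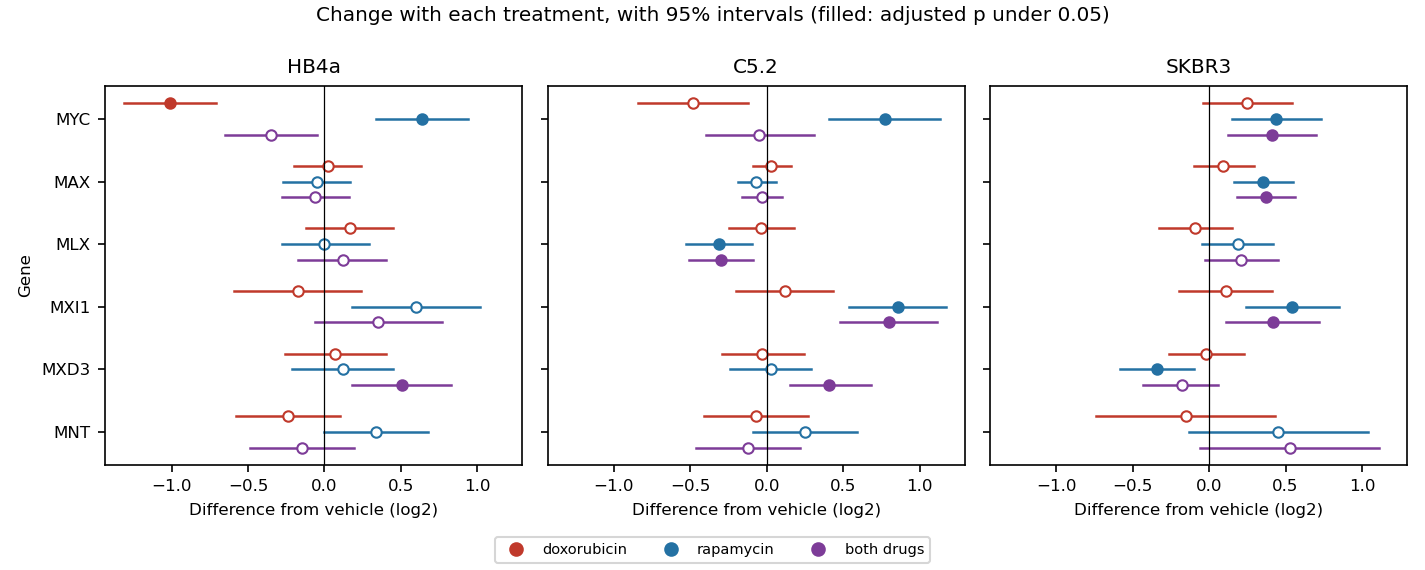
Difference from vehicle (log2) of the 6 network genes past the filter, by line and treatment, with 95% intervals from limma and filled symbols for an adjusted p under 0.05. MYC under doxorubicin lies at -1.01 in HB4a and at 0.25 in SKBR3, and MXI1 under rapamycin at 0.60, 0.86 and 0.54 in HB4a, C5.2 and SKBR3.

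Rapamycin added to doxorubicin raised 1 of the 6 genes in HB4a (MYC, against 2.58% of all genes called), 2 in C5.2 (MXI1 and MXD3, against 13.5%) and 1 in SKBR3 (MAX, against 22%). Doxorubicin added to rapamycin lowered MYC alone in HB4a and in C5.2, against 8.84% and 6.39% of all genes, and limma called 0 in SKBR3 (0 at an unadjusted p under 0.05), against 0.552%. The departure of the pair from the sum of the separate effects was called for 0 of the 6 in each line, with 0, 1 and 0 at an unadjusted p under 0.05 in HB4a, C5.2 and SKBR3, and for 0% of all genes.

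Between the lines in vehicle 1 gene was higher and 1 lower in C5.2 than in HB4a (MXD3 and MYC, against 49.2% of all genes called). SKBR3 was lower than HB4a for 5 of the 6 and lower than C5.2 for 5 of the 6. Of all genes 77.3% and 78.8% were called in either direction, so the shares called are near the background. The shares of all genes lower were not computed. Median differences of the 6 genes were -0.62 and -0.76, beside -0.02 and -0.09 over all genes. The response to doxorubicin differed between SKBR3 and HB4a for 1 gene (MYC, against 3.87%). Limma called 0 between SKBR3 and C5.2 (1 at an unadjusted p under 0.05, against 1.47%) and 0 between C5.2 and HB4a (1, against 0.101%). The response to rapamycin differed between SKBR3 and C5.2 for 2 genes (MAX and MLX, against 6.23%). It was called for 0 between SKBR3 and HB4a (2 at an unadjusted p under 0.05, against 5.03%) and 0 between C5.2 and HB4a (0, against 0%). The response to both drugs was higher in SKBR3 for 2 and lower for 1 in each comparison, MYC, MAX and MXD3 against HB4a (9.82%) and MAX, MLX and MXD3 against C5.2 (12.3%). Between C5.2 and HB4a limma called 0 (1 at an unadjusted p under 0.05, against 0.373%).

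Reported targets of MYC were set beside MYC itself. Of 30 listed nucleolar and ribosome assembly targets 24 had a value, and 20, 20 and 21 were tested in HB4a, C5.2 and SKBR3. With both drugs 13, 10 and 8 of them fell and none rose, against 6.49%, 14.6% and 13.6% of all genes lower. Their median differences were -0.59, -0.48 and -0.28, beside 0.05, -0.06 and -0.06 over all genes. NOP16, a nucleolar protein named for its role in ribosome assembly, fell by 1.28 ± 0.11 in HB4a (adjusted p = 6.33e-08) and 1.27 ± 0.17 in C5.2 (adjusted p = 2.38e-05), and LYAR, a nucleolar growth regulator, fell by 0.91 ± 0.19 in SKBR3 (adjusted p = 0.00164). MYC in those same comparisons gave -0.35, -0.05 and 0.41.

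With rapamycin, where MYC rose in each line, 1, 4 and 4 of the nucleolar targets fell and none rose, against 1.1%, 14.6% and 10.8% of all genes lower, with medians of -0.07, -0.26 and -0.30. NOP16 was among the fallen in all 3 lines (-0.44 ± 0.11, -0.77 ± 0.17 and -0.59 ± 0.08). With doxorubicin 3 fell in HB4a (NOP16 by 0.67 ± 0.11, NOLC1 by 0.61 ± 0.16), against 2.77% of all genes, with a median of -0.36. In C5.2 and SKBR3 limma called 0 of these targets (2 and 0 at an unadjusted p under 0.05), against 0.413% and 0.167% lower, with medians of -0.19 and -0.02. Without the arrays that stood apart the count for doxorubicin in HB4a was 10 and that for rapamycin in C5.2 was 7 lower and 2 higher. In SKBR3 the rapamycin count was then 2 lower, and without SKBR3 vehicle 3 it was 3 lower with rapamycin and 6 with both drugs.

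Of 36 listed targets of metabolism and growth 34 had a value, and 28, 27 and 30 were tested. Both drugs lowered 12 in HB4a, 18 in C5.2 and 9 in SKBR3, beside 6.49%, 14.6% and 13.6% of all genes lower (medians -0.41, -0.42 and -0.18), and 2 rose in SKBR3, beside 8.35% higher. HK2, the hexokinase that opens glycolysis, fell by 1.71 ± 0.11 in HB4a (adjusted p = 2.92e-09), and GART, of purine synthesis, by 0.72 ± 0.14 in C5.2 (adjusted p = 0.00105). PPAT, the first enzyme of purine synthesis, fell by 1.01 ± 0.22 in SKBR3 (adjusted p = 0.00294), while IMPDH2, which makes guanine nucleotides, rose there by 0.62 ± 0.06 (adjusted p = 1.91e-07). Rapamycin lowered 3, 9 and 10 of them, beside 1.1%, 14.6% and 10.8% of all genes lower, and raised 2 in SKBR3, beside 7.48% higher. Doxorubicin lowered 5 in HB4a, beside 2.77%, and limma called 0 of them in C5.2 and SKBR3 (3 and 7 at an unadjusted p under 0.05), where the medians were -0.15 and 0.09. The doxorubicin count in HB4a was 3 with no filter.

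Genes that MYC is reported to repress were mixed. Of 18 listed 17 had a value, and 13, 12 and 9 were tested. Both drugs raised 4, 4 and 5 of them and lowered 3, 1 and 1 (0 in SKBR3 without SKBR3 vehicle 3), beside 10.9%, 6.42% and 8.35% of all genes higher and 6.49%, 14.6% and 13.6% lower, so the falls in C5.2 and SKBR3 are no more frequent than over all genes, with medians of 0.38, 0.20 and 0.60. CDKN1A, the p21 inhibitor of cyclin-dependent kinases and also a p53 target, rose with doxorubicin by 1.75 ± 0.16 in HB4a and 2.14 ± 0.20 in C5.2. SAT1, which acetylates polyamines, rose with both drugs by 1.03 ± 0.19 in C5.2 and 1.42 ± 0.10 in SKBR3, and GAS1, a growth-arrest gene, fell with doxorubicin by 1.53 ± 0.32 in HB4a. With rapamycin 3 rose in each line, beside 2.08%, 2.83% and 7.48% of all genes higher, and 1 fell in SKBR3, beside 10.8% lower, where that fall was not called without SKBR3 vehicle 3. TXNIP, a target of MLX partners that curbs glucose uptake, rose by 0.88 ± 0.14 in C5.2 and 1.17 ± 0.13 in SKBR3. With doxorubicin 4 rose and 4 fell in HB4a (8.66% and 2.77% of all genes), 1 rose and 1 fell in C5.2 (2.84% and 0.413%) and 1 rose in SKBR3 (0.669%).

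**Figure D4:**
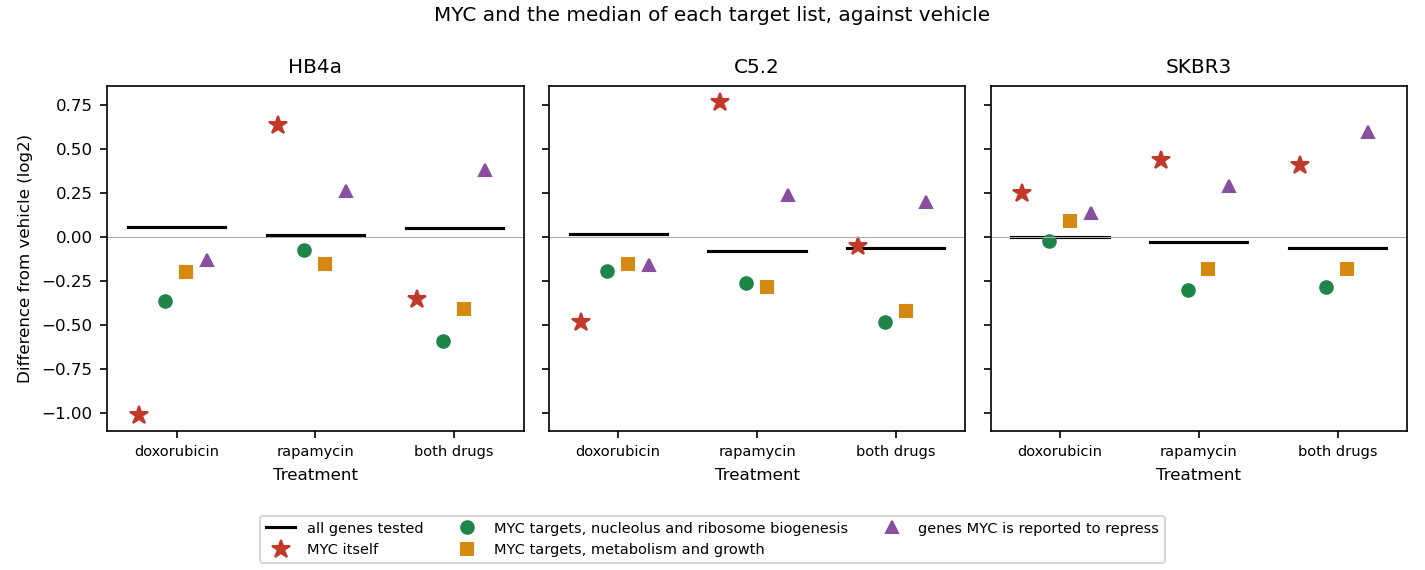
Difference from vehicle (log2) of MYC (star) and the medians of 3 lists of its reported targets, by line and treatment, with a black line for the median of all genes tested. Under rapamycin MYC lies at 0.64, 0.77 and 0.44 in HB4a, C5.2 and SKBR3 and the median of the nucleolar targets at -0.07, -0.26 and -0.30.

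Of 30 listed cofactors of MYC and enzymes of its turnover 27 had a value and 20, 21 and 21 were tested. With doxorubicin limma called 0 in each line (3, 4 and 1 at an unadjusted p under 0.05). Rapamycin lowered 0, 3 and 3, beside 1.1%, 14.6% and 10.8% of all genes lower, and both drugs lowered 3, 4 and 2, beside 6.49%, 14.6% and 13.6%, and raised 1 in HB4a, beside 10.9%. The rapamycin counts in C5.2 and SKBR3 and the both-drug counts in C5.2 and SKBR3 are thus near the shares of all genes. SKP2, a ubiquitin ligase subunit that marks MYC, fell with both drugs by 0.44 ± 0.13, 0.62 ± 0.10 and 0.79 ± 0.13 in HB4a, C5.2 and SKBR3. AURKA, a mitotic kinase that stabilises MYCN protein, fell by 1.37 ± 0.12 with rapamycin in SKBR3. Of 10 other E-box factors and partners of MAX or MLX, 4, 5 and 4 were tested. Rapamycin lowered 3 in C5.2 and 1 in SKBR3, beside 14.6% and 10.8% of all genes lower. Among them were TFEB in C5.2, a lysosomal regulator (-0.51 ± 0.13, adjusted p = 0.0134), and the clock-linked BHLHE40 in SKBR3 (-1.06 ± 0.31, adjusted p = 0.0202, not called without SKBR3 vehicle 3).

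The genes with the most similar pattern were found over 12 group means, each taken from the mean of its line, among 4673 genes past the filter in all lines. These correlations are descriptions over group means that share arrays and vehicle groups. For MYC they were RPL22L1 (Pearson r = 0.973), KIAA1143 (r = 0.955) and THBS1 (r = 0.954). The nearest gene was ESRRA for MAX (r = 0.97), SHB for MLX (r = 0.98), NAP1L1 for MXI1 (r = 0.984), HP1BP3 for MXD3 (r = 0.88) and CABLES1 for MNT (r = 0.976). RPL22L1, a paralog of a ribosomal protein, averaged 9.24 in vehicle-treated HB4a, 8.80 under doxorubicin, 9.40 under rapamycin and 9.06 under both.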

How the data were processed

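RNA of 3 breast lines was measured on 60 Affymetrix arrays, 5 for each of 12 groups. The deposited log2 values per probe set were made by the authors with RMA, per the submitters' processing notes, with no version. The base was read from the values, which span -0.60 to 13.08. Coverage of all arrays by 1 RMA run is not given in the sources used here. RMA sets arrays to a common distribution, so values are relative to the other RNA of the sample. Array medians lay between 1.41 and 1.71. No scan date, batch or detection call is in the labels, and 5 arrays per group limit the precision.

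Titles call the vehicle group DRC, which the design text uses for vehicle and the treatment text for the drug pair. Its source name, DMSO, was followed. Doses were read as nM, where the treatment text has hM. Of 54675 probe sets, 41091 with 1 symbol were used; 1801 with several symbols, 11777 unnamed here and 6 controls were left out. The brightest probe set over all arrays stood for a gene. Genes entered a fit if 5 or more of its arrays exceeded a log2 value of 5.

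Tests used limma 3.58.1 (lmFit and eBayes with trend, 2-sided) with p-values adjusted by Benjamini-Hochberg over the genes tested and a threshold of 0.05, in R 4.3.3 (package data.table, 1.17.8), on the 20 arrays of a line (6167, 6292 and 5977 genes in HB4a, C5.2 and SKBR3) or the 40 arrays of 2 lines. The fit was also run on simulated arrays drawn independently of each other. That run does not cover arrays that share an experiment or stand apart. Plots used matplotlib 3.10.9 and tables numpy 2.4.6 and pandas 2.3.3, under Python 3.11.15. The members and lists were chosen with earlier results of these data known. Named genes were all 10 members, from each list up to 2 largest rises and falls among called genes of a comparison, and the genes of most similar pattern (3 for MYC, 1 for each other member).

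Experiment numbers recur in every group. They were taken to pair arrays where the residuals of every same-numbered pair correlated above 0.1. This held within SKBR3 (lowest 0.238), HB4a without the both-drug group (lowest 0.305), C5.2 except vehicle against both drugs (lowest -0.1) and C5.2 against HB4a in vehicle (lowest 0.163). It did not hold for HB4a with both drugs (lowest -0.569) or for SKBR3 against HB4a (-0.116) or C5.2 (-0.063). Response differences were blocked within each line, so they need pairing within lines only. Blocked values stand in the report where pairing held for the groups compared and the call changed. Unless limited to the arrays compared, a blocked fit used all arrays of its line or lines. Blocked fits with HB4a thus drew on its both-drug arrays, whose pairing did not hold. Those with C5.2 drew on its vehicle and both-drug arrays, which were not paired with each other by this rule.

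Alternatives changed the filter (none, or log2 7), the probe sets (their mean, or each on its own), the normalization (quantile, or arrays centred), the variance model (array weights, or no trend), the pairing (replicate block) and the arrays (those compared, all in 1 fit, or each left out in turn). Arrays were left out in fits without the block. Further settings were added with the data in view: no arrays that stood apart (9 arrays, root mean square deviation over 1.5 times the median of the line), blocked fits limited to the groups compared, and, for the lists, no SKBR3 vehicle 3.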

Additional observations from a re-analysis of the deposited data

Results flagged for a closer look

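On 8 of 84 groups of 5 arrays a lone array lay far from the others, where chance alone gives about 1 in 20 groups. MAX read 7.77 on C5.2 vehicle array 1, against 7.87 to 7.90 on the others. MNT read 4.50 on SKBR3 vehicle array 1 (others 5.74 to 5.96) and 5.40 on SKBR3 rapamycin array 1 (others 6.05 to 6.28). MXD3 read 5.15 on HB4a both-drug array 1 (others 5.68 to 5.89), and MXI1 read 6.83 on C5.2 both-drug array 2 (others 7.44 to 7.61) and 5.90 on SKBR3 rapamycin array 6 (others 6.36 to 6.48). MYC read 9.41 on HB4a both-drug array 2 (others 8.94 to 9.05), and MXD1 read 3.96 on HB4a doxorubicin array 2 (others 2.99 to 3.25).

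A treatment response differed between lines, by limma's test of the difference, for MYC, MAX, MLX and MXD3. SKBR3 minus HB4a was 1.26 for MYC with doxorubicin, and with both drugs 0.76 for MYC, 0.43 for MAX and -0.69 for MXD3. SKBR3 minus C5.2 was 0.42 for MAX and 0.50 for MLX with rapamycin, and 0.40 for MAX, 0.51 for MLX and -0.60 for MXD3 with both drugs.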

How the results depend on the processing

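Without pairing the network genes were called 16 times for treatments against vehicle, 6 for both drugs against 1 drug, 12 between the lines in vehicle and 9 for response differences, and no called value changed sign under the alternatives run. Of these 43 results, 31 stayed called with no filter, 35 with quantile normalization, 35 with only the arrays compared, 36 with all arrays in 1 fit, 37 with array centring, 37 without the arrays that stood apart and 43 with the replicate block. The first count was 9 with no filter. The second was 16 with array weights, 16 with the replicate block, 16 with the block and only the arrays compared, and 10 without the arrays that stood apart. Between the lines the count was 7 with the filter at log2 7 and 6 with the mean of all probe sets. Of the 43 results only 30 and 27 were tested in these settings, and all of those stayed called. Lower counts in these settings, here and below, thus come from results that were no longer tested. Response differences came to 4 with the mean of all probe sets, 18 with array weights, 19 with the replicate block and 17 with the block and only the arrays compared. With the replicate block the treatment count was 23 and the line count 13. Where pairing did not hold, as for HB4a with both drugs and SKBR3 against the other lines, numbers are shared without a shown pairing. The other settings stayed within 1.5 times these counts. Leaving out each array gave 12 to 16, 5 to 7, 11 to 13 and 7 to 10 calls. Counts in the lists moved by over 1.5 times in some settings. With the mean of all probe sets the nucleolar targets lowered were 4 for both drugs in SKBR3 and 0 and 2 for rapamycin in HB4a and SKBR3, and the metabolism targets lowered in HB4a were 3 with doxorubicin and 1 with rapamycin, with 1 raised by doxorubicin in SKBR3. Repressed genes lowered were then 0 for both drugs in HB4a and C5.2 and for doxorubicin in both lines, and those raised in SKBR3 were 3 with both drugs and 0 with doxorubicin. Cofactors lowered by both drugs were 2 in C5.2 and 1 in SKBR3, with 0 raised in HB4a, and 0 of the other E-box factors passed with rapamycin in C5.2 or SKBR3 or with both drugs in C5.2. With no filter 2 nucleolar targets fell with rapamycin in C5.2, 3 metabolism targets fell and 2 repressed genes rose and 2 fell with doxorubicin in HB4a, 0 repressed genes fell in SKBR3 with rapamycin or both drugs, and 1 other E-box factor rose with doxorubicin and with both drugs in HB4a. Without the arrays that stood apart both drugs lowered 5 cofactors in HB4a and 5 in SKBR3 and raised 3 in HB4a and 3 in C5.2, rapamycin lowered 6 and raised 2 in C5.2, and doxorubicin raised 2 and lowered 1 in HB4a and raised 1 in C5.2. In the same setting 1 metabolism target fell with doxorubicin and 1 rose with rapamycin in C5.2, 3 repressed genes rose with doxorubicin and 5 rose and 1 fell with rapamycin in C5.2, 0 repressed genes fell with both drugs in SKBR3, and 1 other E-box factor rose and 1 fell with both drugs in SKBR3. Values under log2 5 limit MYCN, MYCL and MXD1, and 5 arrays per group limit all results.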
